A study of Homo sapiens with 6 samples.

Results

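The genes described here are the human enzymes that add or remove methyl and acetyl groups on histones, taken from RNA-seq of MEG-01 cells with MELK knocked down. They were found by gene symbol. Every protein-coding gene named KMT, SETD or KAT (writers) or KDM, HDAC or SIRT (erasers) with a number was taken, which gave 65 of the 61852 genes in the count table. Of these, 27 were writers, 19 for methylation and 8 for acetylation, and 38 were erasers, 20 for methylation and 18 for acetylation. MEG-01 is an established human megakaryoblastic leukaemia line. The MELK knockdown cells carried the hairpin sh2-MELK (n = 3) and the control cells carried the pLKO.1 vector (n = 3). All 6 libraries were made from poly(A)-selected RNA, were described as independent biological replicates and carried the same batch label, F5. A single hairpin was used, so an effect of losing MELK and an off-target effect of that hairpin cannot be told apart.

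Among the members, histone methylation is written by SET-domain enzymes that use S-adenosylmethionine. It is erased by flavin-dependent enzymes and by Jumonji enzymes that use oxygen and 2-oxoglutarate. Acetylation is written from acetyl-CoA by members of the GNAT and MYST families, and it is erased by zinc-dependent HDACs and by the NAD-dependent sirtuins. In the megakaryocyte lineage the demethylase KDM1A and the deacetylases HDAC1 and HDAC2 act as corepressors with the transcription factor GFI1B. Several members are named for this chemistry although their best known substrate is not a histone, among them SETD3, HDAC6, HDAC10 and the mitochondrial sirtuins SIRT3, SIRT4 and SIRT5.

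MELK encodes a serine/threonine kinase of proliferating cells. It had 16, 124 and 26 counts in the knockdown libraries and 219, 206 and 238 in the control libraries, with no overlap. Its log2 fold change, knockdown over control, was -1.98 ± 0.60 by the edgeR quasi-likelihood fit (adjusted p = 0.0143). Here and below the value after ± is the standard error (SE) for a log2 fold change, also where it stands alone after a gene's name, and the SD for a level. Knockdown replicate 2 had the highest MELK value of its group, about 100 counts above the others, which is the largest of the numbers that the deposited values carry beside their reads (described below). With that number modelled the log2 fold change was -3.39 (95% interval -3.87 to -2.97). When this library was dropped the value was -3.32 (adjusted p = 0.00012, edgeR), and without knockdown replicate 3 it was -1.66 and no longer passed (adjusted p = 0.0599, edgeR).

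Library totals ran from 18945176 to 21711313 counts. Libraries of the same group had log2 level correlations of 0.994 to 0.996, and libraries of different groups 0.890 to 0.907. Mitochondrially encoded genes took 9.12% to 9.18% of the knockdown counts and 10.2% to 10.7% of the control counts. Of 10 megakaryocyte markers, 7 had a mean of at least 100 counts, and VWF, PF4 and GP9 did not. Their summed level was 2655 to 2723 CPM (counts scaled to a library of 1000000) in the knockdown libraries and 3330 to 3426 CPM in the control libraries. No T cell, B cell or stromal marker reached a mean of 100 counts. Of 4 epithelial markers 3 did, at 92.9 to 97.4 summed CPM in the knockdown and 74.2 to 83.5 in the control, and CDH1 did not. The part of these shifts in the results that follow was not tested. In bulk RNA, fewer cells of a kind and less RNA per cell cannot be told apart.

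The deposited counts behave as reads to which 0, 1, 2, 10 or 100 was added, value by value. Genes were therefore tested where their mean was at least 100 counts, and 52 of the 65 members passed this filter. Among these, 10 were higher and 16 lower in the knockdown, and 26 did not pass an adjusted p of 0.05 in edgeR. The background was large. Of 9362 genes tested, 57.2% were called, 28.2% higher and 29% lower, against 50% of the members, 19.2% higher and 30.8% lower. The median log2 fold change of the members was -0.01 and that of all genes -0.00. At a mean of at least 500 counts, 22 of 33 members were called, 8 higher and 14 lower, against 75.6% of all genes at that level. The share of members called was thus slightly below that of genes in general.

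**Figure D1:**
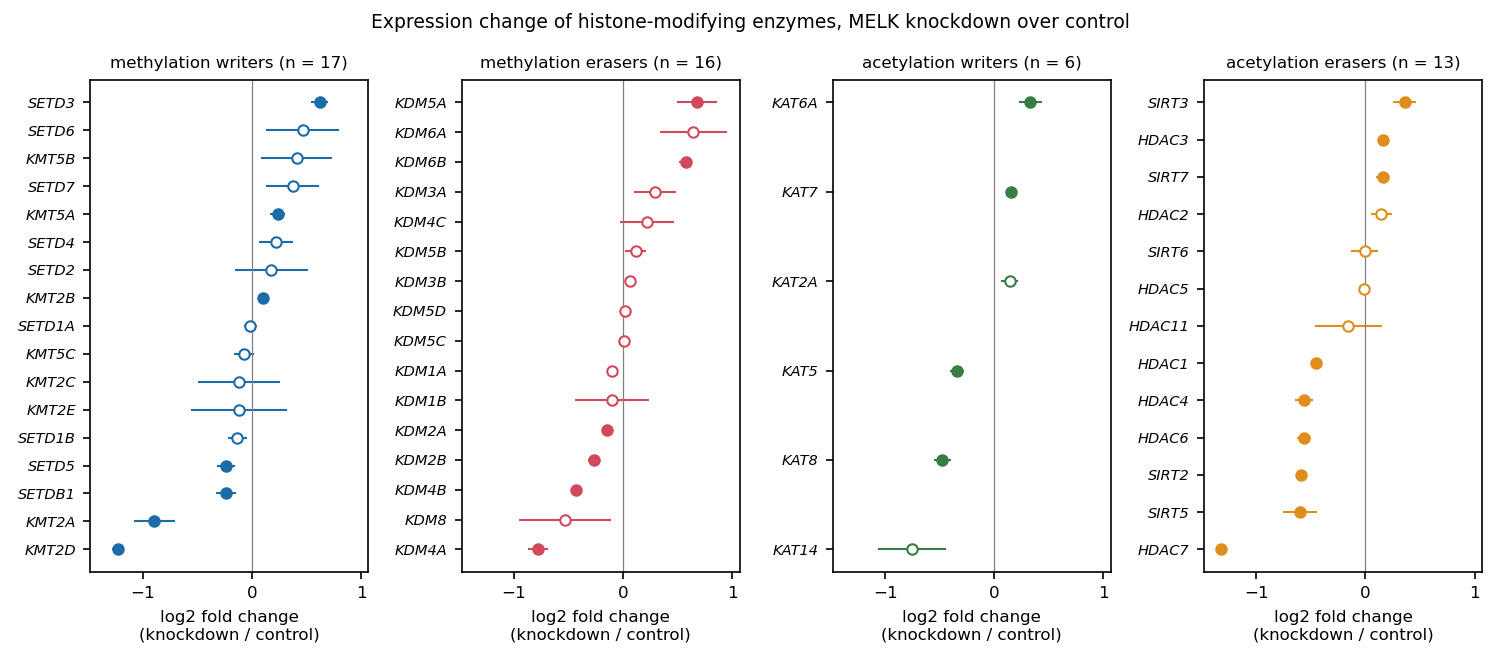
Log2 fold change, knockdown over control, of the 52 members tested, with the standard error as a bar. Each panel is 1 class, filled points passed an adjusted p of 0.05 in edgeR and open points did not. HDAC7 at -1.32 and KMT2D at -1.23 lie farthest to the left, and the highest filled points are KDM5A, SETD3 and KDM6B.

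Changes of at least 0.5 on the log2 scale that passed the test were found in 11 of the 52 members tested, 3 higher and 8 lower. Among all 9362 genes tested the share was 33.4%, with 1524 higher and 1603 lower. HDAC7, KMT2D, KMT2A, KDM4A, SIRT5, SIRT2, HDAC6 and HDAC4 were lower, and KDM5A, SETD3 and KDM6B were higher. A 2-fold difference was reached by HDAC7 and KMT2D alone, against 1094 of the 9362 genes tested. The ranges of the groups did not touch in 29 members, 11 higher and 18 lower, against 64% of all genes tested. These 29 include every called member and HDAC11, KAT14 and KDM6A, which did not pass. With 100 counts taken off every library of the higher group and nothing off the other, all 26 called members kept their direction.

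Writers and erasers were compared as classes. Of the 23 writers tested, 5 were higher and 6 lower, with a median log2 fold change of -0.02. Of the 29 erasers tested, 5 were higher and 10 lower, with a median of -0.01. Of the 10 lower calls among erasers, 6 were acetylation erasers, a class set by gene symbol. They include HDAC6 and SIRT5, whose best known substrate is not a histone. Of 13 acetylation erasers tested, 3 were higher and 6 lower, with a median of -0.16. Of 16 methylation erasers, 2 were higher and 4 lower, with a median of 0.01. Methylation writers gave 3 higher and 4 lower of 17, and acetylation writers 2 higher and 2 lower of 6. Among all genes tested 28.2% were higher and 29% lower, against 17.2% higher and 34.5% lower among erasers and 21.7% higher and 26.1% lower among writers. The counts are small, and whether the classes differ was not tested.

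CPM were summed over the tested members of each class without division by exon length, so a long gene weighs more in a sum. Acetylation erasers summed to 1076, 1080 and 1107 CPM in the knockdown libraries, against 1378, 1409 and 1390 CPM in the control libraries. The groups did not overlap, and the ratio of means was 0.781. HDAC7 made up more of this gap than any other member. Without it the sum was 955 ± 23.7 CPM in the knockdown and 1060.0 ± 12.9 CPM in the control (SD, n = 3 each), a ratio of 0.901. Methylation writers summed to 683 ± 17.1 CPM in the knockdown and 782 ± 23.3 CPM in the control. Leaving out KMT2D alone brought these to 601 ± 17.2 CPM in the knockdown and 590.0 ± 15.2 CPM in the control. Methylation erasers (1486 ± 19.3 CPM in the knockdown, 1562 ± 29.4 CPM in the control) and acetylation writers (319 ± 3.71 CPM in the knockdown, 334 ± 9.58 CPM in the control) differed by under 5% of the control level. In both of these classes, and in methylation writers with KMT2D kept, the knockdown and control libraries did not overlap either.

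Acetylation writers were set over acetylation erasers as a ratio of summed CPM, in which long genes weigh more. This ratio was 0.293, 0.295 and 0.291 in the knockdown libraries and 0.250, 0.232 and 0.237 in the control libraries. Without HDAC7 the same ratio was 0.334 ± 0.00451 in the knockdown and 0.315 ± 0.0128 in the control (SD, n = 3 each), and the groups then overlapped. The ratio of methylation writers to erasers, also of summed CPM, was 0.460 ± 0.00699 in the knockdown and 0.501 ± 0.0165 in the control. Without KMT2D, left out after its value was seen, it was 0.405 ± 0.00836 in the knockdown and 0.378 ± 0.00934 in the control, so its direction turned on KMT2D. For all writers over all erasers the ratio was 0.389 ± 0.00436 in the knockdown and 0.378 ± 0.0123 in the control, with overlapping libraries. Sums and ratios per kb of exons were not computed, and their size and direction could be other than those given here.

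**Figure D2:**
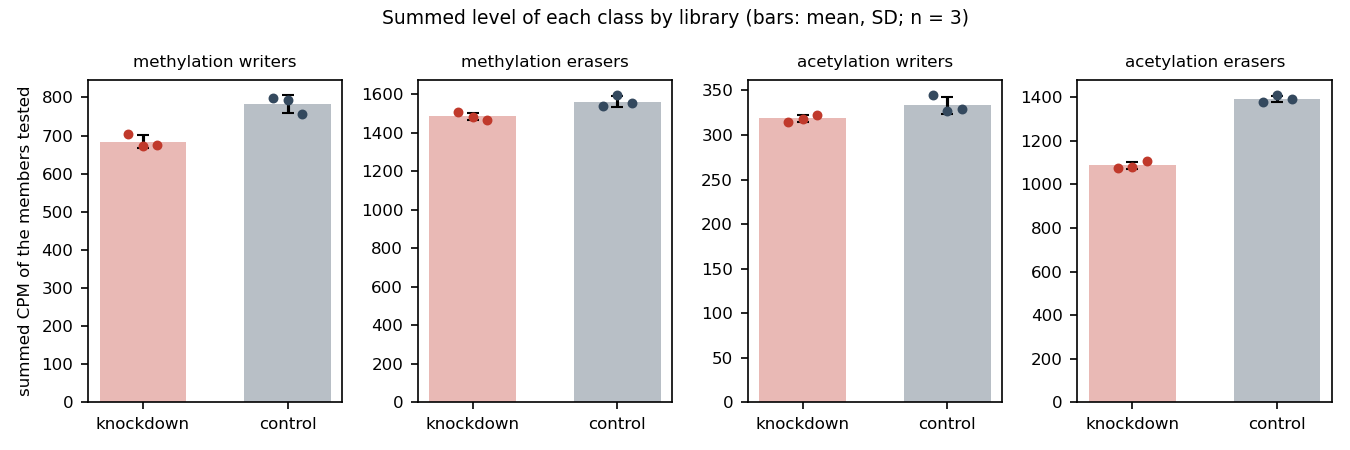
Summed CPM of the tested members of each class, not divided by exon length. Each library is a point, with the mean and SD as bar and whisker (n = 3 knockdown, n = 3 control). Acetylation erasers stand at 1088 CPM in the knockdown and 1393 CPM in the control, and the other classes lie closer together.

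Among the writers of histone H3 lysine 4 (H3K4) methylation, KMT2D fell furthest. KMT2D (ENSG00000167548, chromosome 12, 49018975 to 49059774 on GRCh38) encodes the main monomethyltransferase of enhancers, a very large protein that works in a COMPASS-like complex with the demethylase KDM6A. Its level was 82.3, 84.9 and 78.4 CPM in the knockdown libraries and 202, 192 and 182 CPM in the control libraries. The groups were far apart, and the log2 fold change was -1.23 ± 0.05 (adjusted p = 2.16e-09, edgeR). KMT2A (ENSG00000118058, chromosome 11, 118436464 to 118526832), also called MLL1, maintains HOX gene expression and is a common site of leukaemic rearrangement. It had 23.0, 16.1 and 14.1 CPM in the knockdown libraries and 40.8, 29.4 and 28.8 CPM in the control libraries. The spread within both groups was wide, but the groups did not overlap, and the log2 fold change was -0.89 ± 0.19 (adjusted p = 0.00156, edgeR). It stayed between -1.13 and -0.71 as each library was left out, and it passed each time.

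The paralogs of these genes had other values. KMT2B, the closest relative of KMT2A, was at 17.2 ± 0.0945 CPM per kb of exons in the knockdown and 16.1 ± 0.387 in the control (SD, n = 3 each), by far the higher level of the pair. Its log2 fold change was 0.10 ± 0.04 and it passed narrowly (adjusted p = 0.0299, edgeR). KMT2C, the relative of KMT2D, had a log2 fold change of -0.12 ± 0.38 and did not pass. It averaged 124 counts, where the added number weighs most, and with that number modelled its estimate was -0.60 (95% interval -0.86 to -0.34). SETD1A (-0.02 ± 0.06) and SETD1B (-0.13 ± 0.09), the enzymes that trimethylate H3K4 at promoters, did not pass. SETD7, which monomethylates H3K4 and many other proteins, was at 0.37 ± 0.24 and KMT2E, a reader-like relative, at -0.12 ± 0.44, and neither passed.

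Below, promoters are shown for the called member of at least 500 counts with the largest log2 fold change in each direction, among writers (KMT2D lower, SETD3 higher) and among erasers (HDAC7 lower, KDM6B higher). Each runs from 250 bases before to 50 after the annotated start, so that the sequence can be read beside the values. Capitals mark matches on either strand to the GC box GGGCGG, the CCAAT box CCAAT, the ETS core CCGGAAG, the GATA site AGATAA and the E-box CACGTG. Sequences are from RefSeq on GRCh38.p14, each 5′ to 3′ on its gene's strand. These RefSeq starts can lie away from the ends of the gene as GENCODE gives them. The KMT2D window (minus strand, chr12:49060745-49061044) holds 2 GC boxes and 1 E-box.
KMT2D: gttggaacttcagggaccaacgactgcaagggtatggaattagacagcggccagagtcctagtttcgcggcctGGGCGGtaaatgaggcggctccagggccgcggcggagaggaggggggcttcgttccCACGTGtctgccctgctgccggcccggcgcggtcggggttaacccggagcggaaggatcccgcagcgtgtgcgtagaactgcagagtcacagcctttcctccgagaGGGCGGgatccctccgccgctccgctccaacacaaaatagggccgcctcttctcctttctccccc

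The other methylation writers moved less, with SETD3 as the exception. SETD3 (ENSG00000183576, chromosome 14, 99397746 to 99480889) is best known as the enzyme that methylates a histidine of actin. It had 50.8, 47.4 and 47.7 CPM in the knockdown libraries and 29.4, 31.9 and 33.4 CPM in the control libraries. Every knockdown library was higher, with a log2 fold change of 0.62 ± 0.08 (adjusted p = 3.09e-05, edgeR). KMT5A, which monomethylates H4K20 and is itself regulated through the cell cycle, rose by 0.24 ± 0.07. KMT5B (0.41 ± 0.32) and KMT5C (-0.07 ± 0.09), which add the further methyl groups to that residue, did not pass. SETDB1, which trimethylates H3K9 over retroelements, fell (-0.24 ± 0.09), and so did SETD5 (-0.24 ± 0.08). SETD2, the H3K36 trimethylase, was at 0.18 ± 0.33, SETD4 at 0.22 ± 0.15 and SETD6, which methylates the NF-κB subunit RELA, at 0.46 ± 0.34, and none of them passed. The SETD3 promoter (minus strand, chr14:99480810-99481109) holds 4 GC boxes and 1 CCAAT box.
SETD3: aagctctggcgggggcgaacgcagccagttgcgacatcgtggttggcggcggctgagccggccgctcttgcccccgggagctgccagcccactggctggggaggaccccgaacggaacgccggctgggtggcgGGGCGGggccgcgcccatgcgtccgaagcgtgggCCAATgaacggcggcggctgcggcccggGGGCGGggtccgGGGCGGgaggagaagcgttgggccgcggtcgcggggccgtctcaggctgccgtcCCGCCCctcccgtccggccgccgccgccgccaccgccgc

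Among the methylation erasers, 2 of the 3 KDM4 enzymes tested, which remove methyl groups from H3K9 and H3K36, fell. KDM4A (ENSG00000066135, chromosome 1, 43650158 to 43705515) had 32.2, 26.9 and 26.4 CPM in the knockdown libraries and 47.4, 49.8 and 49.7 CPM in the control libraries. No library of the knockdown reached the lowest control value, and the log2 fold change was -0.78 ± 0.09 (adjusted p = 1.49e-05, edgeR). KDM4B, more abundant at 15.6 ± 0.192 CPM per kb in the knockdown and 21.1 ± 0.211 in the control, also fell (log2 fold change -0.44 ± 0.03). KDM4C did not pass (0.22 ± 0.25). The H3K36 demethylases KDM2B (-0.27 ± 0.05) and KDM2A (-0.15 ± 0.05), which bind CpG islands, also fell.

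Both KDM6 enzymes among the members, which demethylate H3K27, were higher in all knockdown libraries than in any control library. KDM6B (ENSG00000132510, chromosome 17, 7839904 to 7854796), also called JMJD3, is an inducible enzyme that removes the Polycomb mark. It had 126, 132 and 124 CPM in the knockdown libraries and 92.1, 84.7 and 79.7 CPM in the control libraries. The log2 fold change was 0.57 ± 0.06 (adjusted p = 3.70e-06, edgeR). KDM6A, also called UTX, had only 9.54, 7.89 and 12.3 CPM in the knockdown libraries and 7.18, 7.09 and 4.78 CPM in the control libraries. Its log2 fold change of 0.64 ± 0.31 did not pass (adjusted p = 0.0969, edgeR), and with the added number modelled it was 0.37 (95% interval 0.14 to 0.60). Of 2 annotated starts of KDM6B, the upstream one (plus strand, chr17:7833967-7834266) holds 5 GC boxes.
KDM6B: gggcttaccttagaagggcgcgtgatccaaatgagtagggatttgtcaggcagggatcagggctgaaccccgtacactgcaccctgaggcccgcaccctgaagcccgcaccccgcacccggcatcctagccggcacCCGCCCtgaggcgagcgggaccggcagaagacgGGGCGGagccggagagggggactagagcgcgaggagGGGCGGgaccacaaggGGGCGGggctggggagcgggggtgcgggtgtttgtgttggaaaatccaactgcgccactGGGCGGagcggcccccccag

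Of the 6 H3K4 demethylases, KDM5A passed and 5 did not. KDM5A (ENSG00000073614, chromosome 12, 280129 to 389454), a retinoblastoma-binding enzyme that removes trimethylation, had 18.1, 15.9 and 18.5 CPM in the knockdown libraries and 13.3, 9.96 and 9.45 CPM in the control libraries. The groups did not overlap, and the log2 fold change was 0.68 ± 0.18 (adjusted p = 0.00739, edgeR), or 0.93 (95% interval 0.75 to 1.11) with the added number modelled. KDM5C (0.01 ± 0.03), KDM5D (0.02 ± 0.04) and KDM5B (0.11 ± 0.10) did not pass. KDM1A (ENSG00000004487, chromosome 1, 23019443 to 23083689), or LSD1, had 174, 180.3 and 191 CPM in the knockdown libraries and 188, 197 and 199 CPM in the control libraries. Those ranges overlapped, and the log2 fold change of -0.10 ± 0.04 missed the threshold (adjusted p = 0.0590, edgeR). KDM1B was at -0.10 ± 0.34. The H3K9 demethylases KDM3A (0.30 ± 0.19) and KDM3B (0.06 ± 0.04) and KDM8 (-0.53 ± 0.42) did not pass either.

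**Figure D3:**
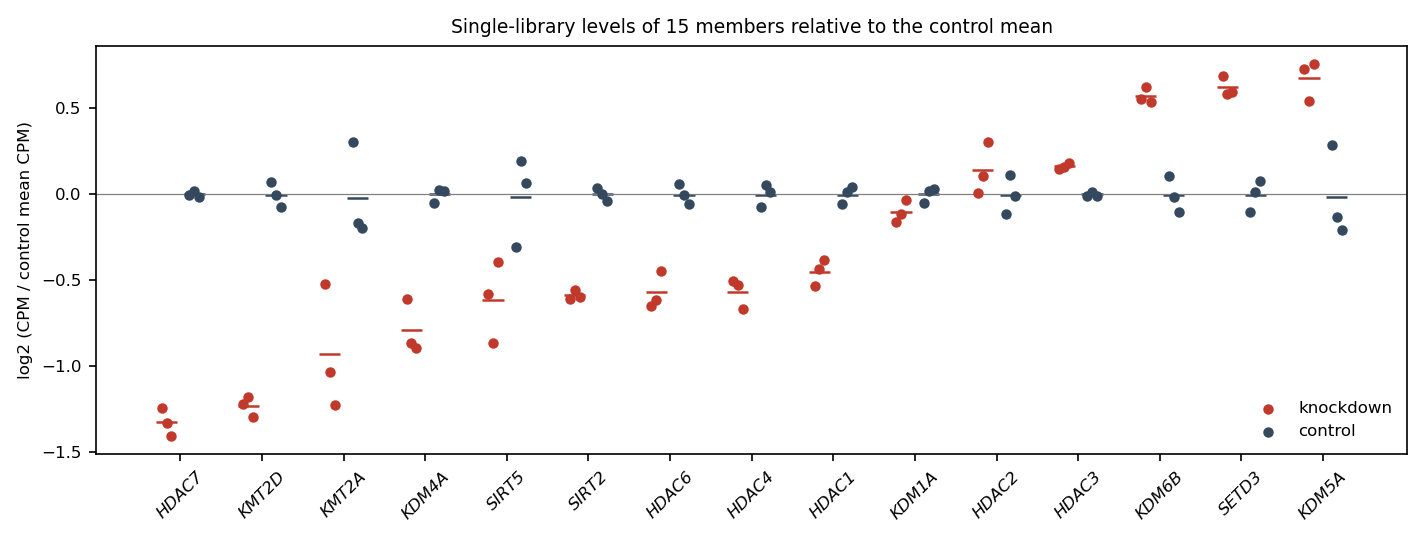
Level of 15 members in each library, as the log2 ratio of its CPM to the mean CPM of the 3 control libraries, with knockdown points left of control points and a line at each group's mean. HDAC7 and KMT2D lie more than 1 unit below the control in every knockdown library, and KDM1A and HDAC2 overlap with the control.

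Among the acetylation writers, 2 of the 4 MYST members tested fell and 2 rose, and KAT6B was under the filter. KAT8, or MOF, which acetylates H4K16, fell to 46.5 ± 4.70 CPM in the knockdown, against 64.7 ± 2.87 CPM in the control (SD, n = 3 each), a log2 fold change of -0.48 ± 0.08 (adjusted p = 0.000241, edgeR). KAT5, or TIP60, which acts in DNA repair and transcription, fell as well (-0.34 ± 0.06). KAT7, or HBO1, which acetylates H3K14 and H4, rose by 0.16 ± 0.05, and KAT6A, or MOZ, a haematopoietic stem cell regulator, rose by 0.33 ± 0.11. Those increases were small, and the KAT5 call was lost with the GC trend removed. KAT2A, or GCN5, the acetyltransferase of the SAGA complex, did not pass (0.14 ± 0.08), and nor did KAT14 of the ATAC complex (-0.75 ± 0.31, adjusted p = 0.0574 in edgeR).

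The class IIa deacetylases, which bind MEF2 factors and shuttle between nucleus and cytoplasm, held the largest decrease of all members. HDAC7 (ENSG00000061273, chromosome 12, 47782722 to 47833132) had 140.4, 132 and 126 CPM in the knockdown libraries and 332, 336 and 329 CPM in the control libraries. The knockdown level was 0.400 times the control level, with a log2 fold change of -1.32 ± 0.04 (adjusted p = 3.70e-10, edgeR). HDAC4 (ENSG00000068024, chromosome 2, 239048168 to 239401654) had 30.5, 30.1 and 27.4 CPM in the knockdown libraries and 41.1, 45.1 and 43.9 CPM in the control libraries. It fell by a smaller step, -0.56 ± 0.08 (adjusted p = 0.000103, edgeR). HDAC5, which per exon length was above HDAC4 in both groups, had 167, 172 and 175 CPM in the knockdown libraries and 175, 173 and 171 CPM in the control libraries. These overlapped, and HDAC5 did not pass (-0.01 ± 0.04). Per kb of exons HDAC7 was at 13.4 ± 0.746 CPM in the knockdown and 33.5 ± 0.400 CPM in the control, so that it stood below HDAC5 in the knockdown and above it in the control. The HDAC7 promoter (minus strand, chr12:47819854-47820153) has no GC box and 1 GATA site.
HDAC7: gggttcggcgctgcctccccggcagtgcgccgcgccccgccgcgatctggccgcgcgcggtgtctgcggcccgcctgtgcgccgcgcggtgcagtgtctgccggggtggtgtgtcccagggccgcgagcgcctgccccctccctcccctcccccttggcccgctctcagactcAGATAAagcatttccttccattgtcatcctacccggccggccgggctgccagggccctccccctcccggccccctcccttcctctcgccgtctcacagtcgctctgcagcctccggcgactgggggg

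Of the 3 class I deacetylases tested, 1 was lower, 1 higher and 1 not past the threshold. HDAC1 (ENSG00000116478, chromosome 1, 32292086 to 32333635) had 151, 161 and 167 CPM in the knockdown libraries and 210.0, 220.2 and 225 CPM in the control libraries. It was lower in every knockdown library, at -0.45 ± 0.04 on the log2 scale (adjusted p = 4.22e-06, edgeR). HDAC2 (ENSG00000196591, chromosome 6, 113933028 to 114011308), its partner in the SIN3, NuRD and CoREST complexes, had 33.8, 36.4 and 41.6 CPM in the knockdown libraries and 31.1, 36.5 and 33.5 CPM in the control libraries. The HDAC2 ranges overlapped, and it did not pass (0.15 ± 0.10, adjusted p = 0.233 in edgeR). HDAC3 (ENSG00000171720, chromosome 5, 141620876 to 141636870), a nuclear deacetylase, had 279.6, 283 and 287 CPM in the knockdown libraries and 252, 255 and 252 CPM in the control libraries. It was slightly higher in every knockdown library, with a log2 fold change of 0.16 ± 0.03 (adjusted p = 0.000674, edgeR).

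Per kb of exons, HDAC3 (61.2 ± 0.835 CPM in the knockdown, 54.6 ± 0.480 in the control), HDAC1 (40.4 ± 2.10 in the knockdown, 55.1 ± 1.90 in the control) and KDM1A (33.4 ± 1.52 in the knockdown, 35.8 ± 1.01 in the control) had the highest levels of the 52 tested members. By this measure HDAC1 and HDAC3 did not differ beyond their spread in the control. In the knockdown they did, with HDAC3 the higher in every library. The merged exons are 4631 bases for HDAC3 and 3963 for HDAC1, but the longest transcripts are 1959 and 2409 bases. How the 2 genes compare in the control therefore depends on the length used, which the spread between libraries does not cover. HDAC2 was far lower, at 2.41 ± 0.257 in the knockdown and 2.18 ± 0.172 in the control. The lowest tested level was that of KMT2C, at 0.309 ± 0.137 in the knockdown and 0.336 ± 0.0170 in the control.

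**Figure D4:**
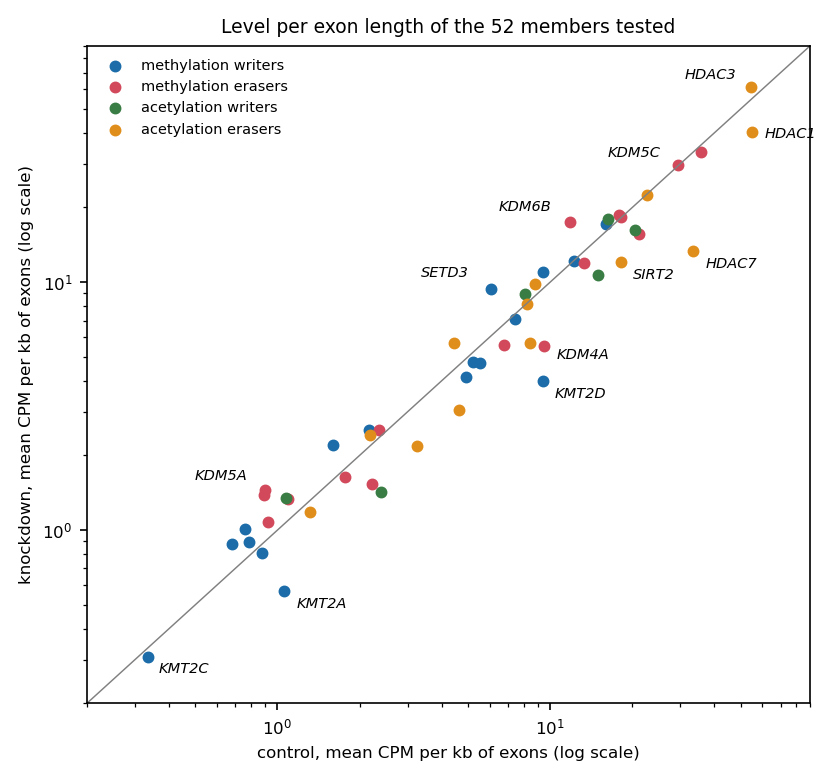
Mean CPM per kb of exons of the 52 tested members, knockdown on the vertical and control on the horizontal axis, both logarithmic, coloured by class, with the line of equality. HDAC1, HDAC3 and KDM1A are at the top right, and HDAC7 and KMT2D lie farthest below the line.

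HDAC6 (ENSG00000094631, chromosome X, 48801377 to 48824982), the class IIb deacetylase of tubulin, had 57.0, 58.4 and 65.6 CPM in the knockdown libraries and 93.0, 89.0 and 85.8 CPM in the control libraries. Its log2 fold change was -0.57 ± 0.06 (adjusted p = 1.17e-05, edgeR). SIRT2 (ENSG00000068903, chromosome 19, 38878555 to 38899862), a mostly cytoplasmic sirtuin that also acts on tubulin, had 73.8, 76.6 and 74.7 CPM in the knockdown libraries and 116, 113 and 109.6 CPM in the control libraries. Its decrease was of almost the same size, -0.59 ± 0.05 (adjusted p = 5.12e-07, edgeR). Both tubulin deacetylases were thus lower in every knockdown library. HDAC11, the class IV enzyme, did not pass (-0.16 ± 0.31).

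The mitochondrial sirtuins went in opposite directions. SIRT5, which removes succinyl and malonyl groups, had 20.2, 16.6 and 22.9 CPM in the knockdown libraries and 24.4, 34.5 and 31.6 CPM in the control libraries, a log2 fold change of -0.60 ± 0.15 (adjusted p = 0.00560, edgeR). SIRT3, the main mitochondrial deacetylase, rose by 0.36 ± 0.10 (adjusted p = 0.0114, edgeR). SIRT7, a nucleolar enzyme, rose by 0.16 ± 0.06. SIRT6, an H3K9 deacetylase of chromatin, was at -0.01 ± 0.12. SIRT1 (ENSG00000096717, chromosome 10, 67884669 to 67918390) was under the filter, with 137, 38 and 39 counts in the knockdown libraries and 43, 30 and 139 in the control libraries. Each group holds 1 value about 100 above the others, a distance equal to the largest added number. With that number modelled the difference was 0.07 (95% interval -0.37 to 0.50).

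The other members under a mean of 100 counts were HDAC8, HDAC9, HDAC10, KAT2B, KAT6B, KDM4D, KDM4E, KDM4F, KDM7A, SETD9, SETDB2 and SIRT4. KDM4E and KDM4F hold only the added values. For 3 of the rest the modelled interval lay on one side of 0. HDAC9, a class IIa relative of HDAC7, had 24, 111 and 121 counts in the knockdown libraries and 0, 7 and 5 in the control libraries. The modelled log2 fold change was 2.49 (95% interval 1.45 to 3.70), opposite in sign to that of HDAC7 and at a far lower level. KDM4D was at 0.51 (95% interval 0.16 to 0.88) and KAT6B at -0.64 (95% interval -1.05 to -0.23). These estimates use 1 dispersion for all genes and carry no call here.

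Of the 52 members tested, 19 had a mean between 100 and 500 counts, and edgeR called 4 of them, KMT2A, SIRT5, SIRT3 and KDM5A. Among all genes calls were also scarcer at this level. Of the 9362 genes tested 5359 were called, and 3811 of these calls lay in the 5038 genes with at least 500 counts. With the added number modelled 14 members were higher and 19 lower. The members gained were KAT2A, KDM3A, KDM6A, KMT2E and SETD6 on the higher side and KAT14, KDM8 and KMT2C on the lower side, and KMT2B was lost. In simulated data this model called more unchanged genes than edgeR did, 22 of 207 calls against 4 of 159.

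The calls of 8 members turned on single libraries. SIRT7 (log2 fold change 0.13 to 0.18 over the fits that left out 1 library, highest adjusted p 0.113 in edgeR) passed only without knockdown replicate 2. The KMT2B call (0.09 to 0.12) ended when knockdown replicate 1, 2 or 3 or control replicate 2 was dropped. SETDB1 (-0.32 to -0.19) lost its call without knockdown replicate 1 or 2 or control replicate 2 or 3, and SETD5 (-0.29 to -0.17) without knockdown replicate 1 or 3 or control replicate 2 or 3. KDM2A (-0.18 to -0.11) lost it without knockdown replicate 2 or 3 or control replicate 2, and KAT6A (0.25 to 0.40) without knockdown replicate 1 or 2 or control replicate 3. KAT7 (0.13 to 0.19) lost it without knockdown replicate 2 or 3, and SIRT3 (0.28 to 0.41) without knockdown replicate 1. The other 18 called members passed in all 6 of these fits.

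Near relatives were set side by side in 23 pairs of paralogs, of which 17 had both genes tested. In 7 pairs the log2 fold changes had opposite signs, and in 7 they lay more than 0.5 apart. Among the pairs with opposite signs, both genes were called only in KMT2A with KMT2B and in KAT7 with KAT8. Pairs of unrelated genes were not counted for comparison. The widest gaps were KMT2C minus KMT2D at 1.11, KMT2A minus KMT2B at -0.99, KDM4B minus KDM4C at -0.65, KAT7 minus KAT8 at 0.63, HDAC1 minus HDAC2 at -0.59, KDM5A minus KDM5B at 0.56 and HDAC4 minus HDAC5 at -0.55. The nearest were KDM1A with KDM1B and KDM6A with KDM6B, at 0.00 and 0.07. KMT2C and KDM4C have few counts, and with the added number modelled KMT2C minus KMT2D was 0.64 and KDM4B minus KDM4C -0.41, while KMT2A minus KMT2B, at -1.07, was then the widest of the 17. KDM6A minus KDM6B was then -0.22. With the GC and length trends removed, KDM4B minus KDM4C was -0.16, KDM4A minus KDM4B -0.73, KMT2C minus KMT2D 0.64, KDM6A minus KDM6B -0.51 and KMT2A minus KMT2B -1.41. These differences were not tested. How reads shared between similar copies were counted, and the strand setting, are not given in the sources at hand.

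GC content moved with the fold change. Over the 52 members Spearman's rho between log2 fold change and transcript GC content was -0.34, and over 9331 genes it was -0.338. After removal of the GC and length trends it was 0.167 over the members, 0.279 over the 33 members with at least 500 counts and 0.009 over all genes. The trend fitted to all genes thus left the members with a rho of the opposite sign. These are descriptions across genes of the same 6 libraries. With the trends removed, 22 of the 26 calls were kept, and HDAC7 (-1.02), KMT2D (-0.74), KDM4A (-0.81), SIRT2 (-0.29), SETD3 (0.42) and KDM6B (0.99) were among them. HDAC4 was then at -0.29 and HDAC6 at -0.35, nearer to 0, while KMT2B (0.57), SIRT3 (0.58) and SIRT7 (0.33) lay farther from it. KAT5, KDM2A and KDM4B no longer passed and KDM2B turned to 0.04. HDAC5 (0.33), KAT2A, KDM3B, KDM5C, KMT5C, SETD1A (0.39), SETD1B and SIRT6 became higher, and KAT14 and KDM1A (-0.13) became lower. The count was then 18 higher and 14 lower, with writers at 9 higher and 6 lower and erasers at 9 higher and 8 lower. After that removal, erasers no longer had more members lower than higher.

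**Figure D5:**
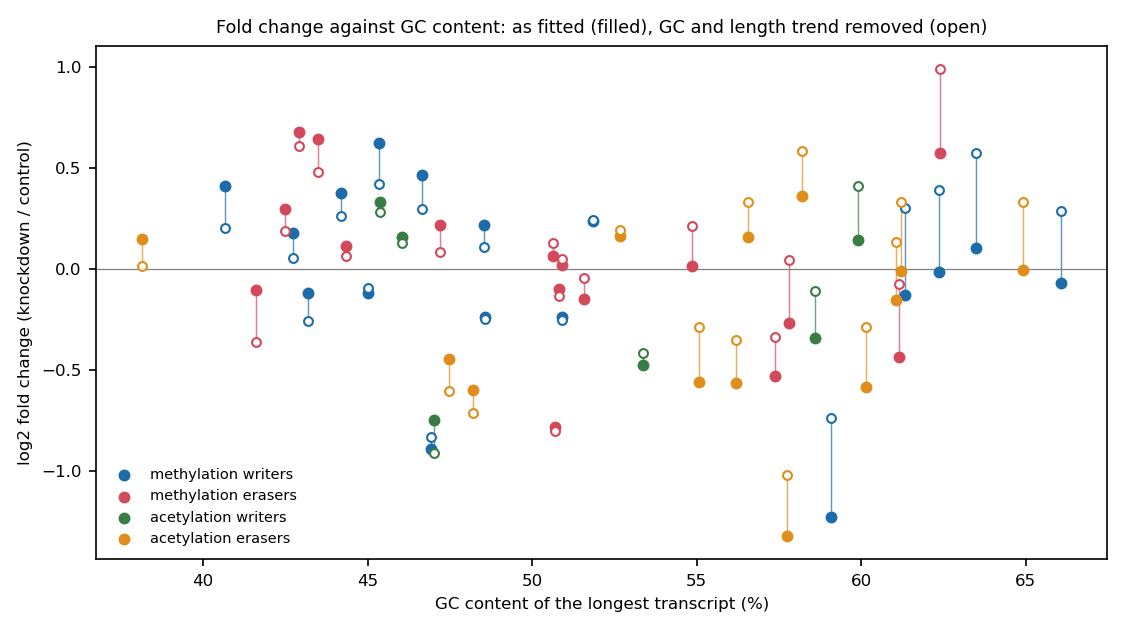
Log2 fold change, knockdown over control, of the 52 tested members against the GC content of their longest transcript, as fitted (filled) and with the GC and length trend removed (open), joined for each gene. Members above 55% GC move up by the correction, and HDAC7 and KMT2D stay lowest among them.

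Of the 65 members, 59 had at least 1 promoter window in the RefSeq table, 90 windows in all. Motifs were counted on both strands. The GC box GGGCGG was in 65.6% of member windows, against 45% of all 35116 windows and 68.3% of those of protein-coding genes tested here. For the motifs that follow, the first value after "against" is the share of all windows and the second that of windows of these protein-coding genes. CCAAT was in 31.1% of member windows, against 34.6% and 35.1%. CCGGAAG was in 16.7%, against 10.3% and 18.1%. AGATAA was in 10%, against 10.3% and 5.34%. CACGTG was in 12.2%, against 7.26% and 9.97%. TATAAA was in 1.11%, against 11.5% and 5.68%, and TGACGTCA was in 1.11%, against 1.85% and 2.93%. TTTGGCGC was in 0 of 90 windows, against 0.652% and 0.911%. By gene, the GC box was in 7 of 8 members called higher, 11 of 15 called lower and 17 of 24 not past the threshold. The ETS core was in 3 of 8 called higher, 4 of 15 called lower and 5 of 24 not past the threshold, and the GATA site in 0 of 8, 2 of 15 and 4 of 24 in that order. The E-box letters were in 0 of 8 members called higher, 5 of 15 called lower and 4 of 24 not past the threshold. CCAAT was in 2 of 8 called higher, 8 of 15 called lower and 7 of 24 not past the threshold. TATAAA, TGACGTCA and TTTGGCGC were in none of these 3 sets. Counts by gene cannot be set against the shares of windows, because a gene can have more than 1 window. A match is a description of these letters only.

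Further genes listed under the same chemistry, outside the 6 families, were counted too. Of 22 other methyltransferases tested, 4 were higher and 11 (50%) lower, against 29% lower among all genes, with a median log2 fold change of -0.25. PRMT1, the main arginine methyltransferase, was at 408 ± 15.4 CPM in the knockdown and 658 ± 14.04 CPM in the control (SD, n = 3 each), -0.69 ± 0.03 on the log2 scale. The H3K9 dimethyltransferase EHMT2 (-0.41 ± 0.05), PRMT7 (-0.35 ± 0.10) and SMYD5 (-0.35 ± 0.06) fell. With the GC trend removed EHMT2 and PRMT7 no longer passed, and SMYD5 was at -0.18. Of 5 genes listed as other demethylases, 3 were higher and 1 lower, or 80% called against 57.2% of all genes. Whether each acts on histones was not examined. JMJD6 was at 0.45 ± 0.06, PHF2 at 0.19 ± 0.08 (adjusted p = 0.0458, edgeR) and the H3K9 and H4K20 demethylase PHF8 at -0.41 ± 0.08. The remaining higher gene averaged 150 counts, and its call was lost with the GC and length trends removed. Of 10 other acetyltransferases, 2 were higher and 1 lower, or 30% called against the same 57.2%. ELP3, the catalytic subunit of Elongator, rose by 0.65 ± 0.07, and EP300, the p300 coactivator, fell (-0.35 ± 0.11), a call lost with the GC trend removed.

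Subunits that the members work with moved both ways. Of 12 COMPASS subunits, which serve the KMT2 and SETD1 enzymes, 5 were higher and 3 lower, or 66.7% called against 57.2% of all genes. CXXC1 fell (-0.64 ± 0.06) and WDR82 rose (0.61 ± 0.05), though both belong to the SETD1 complexes, and WDR5, shared by all of these complexes, rose by 0.22 ± 0.04. With the GC and length trends removed, described above, HCFC1, a COMPASS subunit that had fallen (-0.35 ± 0.03), was higher at 0.10, and CXXC1 was at -0.38, WDR82 at 0.38 and WDR5 at 0.36. Of 32 subunits of HDAC complexes, 6 were higher and 8 lower, or 43.8% called. The NuRD subunit MTA1 (-0.63 ± 0.04) fell, and the SIN3 subunit SAP18 (0.73 ± 0.06) and the NuRD remodeller CHD4 (0.81 ± 0.11) rose. In the same correction MTA1 was at -0.33 and SAP18 at 0.46. Of 40 subunits of acetyltransferase complexes, 11 were higher and 13 lower, or 60% called. KANSL3, of the KAT8 complex, fell (-0.90 ± 0.04), while KANSL2, of the same complex, rose (0.50 ± 0.08). SGF29 of SAGA fell (-1.06 ± 0.13) and JADE1, a partner of KAT7, rose (0.50 ± 0.08). Of 6 acetyl-lysine readers, BRD2 rose (0.40 ± 0.03), BRD3 (-0.26 ± 0.06) and BRWD1 fell, and 3 did not pass, so that 50% were called. BRWD1, picked out after its value was seen, was at 5.68 ± 0.446 CPM in the knockdown and 29.2 ± 1.94 CPM in the control (SD, n = 3 each). Its log2 fold change of -2.36 ± 0.14 (adjusted p = 7.03e-08, edgeR) was the largest among the called genes of these lists. The share of genes called in the HDAC complexes and the readers was thus below that of all genes, and in the acetyltransferase complexes it was near it.

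Genes that supply or clear the cofactors of these enzymes were lower or did not pass. Of 12 tested, 0 were higher, 7 lower and 5 not past the threshold in edgeR, and 1 was higher at an unadjusted p below 0.05. The share called was 58.3%, close to the 57.2% of all genes, of which 28.2% were higher and 29% lower. DESeq2 gave 1 higher, limma-voom 0 and the model of the added number 2. The list had a median log2 fold change of -0.33 against -0.00 for all genes. AHCY, which clears the S-adenosylhomocysteine left by methyltransferases, was at 146 ± 6.68 CPM in the knockdown and 319.9 ± 5.84 CPM in the control (SD, n = 3 each), a log2 fold change of -1.13 ± 0.04. ACLY, which makes acetyl-CoA from citrate, was at 379 ± 6.43 CPM in the knockdown and 673 ± 23.3 CPM in the control, a log2 fold change of -0.83 ± 0.03. IDH2, which makes 2-oxoglutarate in mitochondria, fell (-0.85 ± 0.03), and so did MAT2B, a subunit of the enzyme that makes S-adenosylmethionine (-0.40 ± 0.07). All 4 still passed as lower with the GC and length trend removed, with MAT2B at -0.70.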

How the data were processed

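The authors deposited 1 table of counts per gene for 6 libraries, with columns named as raw per the file headers. Per the submitters' processing notes the build was GRCh38 and R 4.3.3, STAR, HTSeq, fastp, FastQC and DESeq2 were used. Their other versions, the strand setting and the counting mode are not stated in the sources at hand. In 35797 of 61852 genes (57.9%) every value was 0, 1, 2, 10 or 100, so the deposited counts were taken as reads plus such a number (SD of the 5 numbers 38.9). Where it was added is unknown.

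Symbols, coordinates, exon lengths and transcript GC content are from GENCODE release 29 on GRCh38 (61803 genes had a symbol), and promoters from RefSeq. Of 89 genes that match the symbols, 65 are protein-coding. edgeR 4.0.16 was run with TMM scaling and a robust quasi-likelihood F-test on the 9362 genes that averaged 100 counts or more, Benjamini-Hochberg adjusted over all of them at 0.05. The default filterByExpr lets in genes without reads and was an alternative. CPM are counts scaled to 1000000 of the TMM-scaled library of tested genes, and levels between genes are given per kb of merged exons. Class sums and their ratios are of CPM without this division. Each ± beside a log2 fold change is an SE derived from the fit, the absolute log2 fold change divided by the square root of its F statistic. Beside a CPM it is the SD. The modelled values take each count as negative binomial reads (dispersion 0.0014) plus 1 of the 5 numbers, with 95% profile intervals. GC content and length trends were removed as spline offsets (df 5) for the 99.7% of tested genes with both.

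Other alternatives were relative log expression scaling, library size alone, DESeq2 1.42.0, limma-voom (limma 3.58.1), a minimum mean of 500 counts, no filter, the replicate number as a block and each library left out, with the tested genes held fixed. Replicates of a group differed beyond sampling noise (chi-square per degree of freedom 4.28 to 10.5), so none was a copy. The labels call the replicates biological, but say nothing of how the cultures were kept apart, and p-values cover only the spread between the libraries, which may be technical.

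The members, gene lists, paralog pairs and filters were chosen with earlier results of these data known. Values in every library are given for called members that averaged 500 counts or more with a log2 fold change of at least 0.5 either way, and for HDAC1, HDAC2, HDAC3, KDM1A, KMT2A and SIRT1. KDM5A, KDM6A, HDAC5, SIRT5, HDAC9 and BRWD1 were added after their values were seen. From each partner list up to 4 called genes of that level with the largest changes are named, except for 1 that is not reported here. On simulated counts of 9485 genes with the added number, the edgeR fit found 57.8% of planted log2 changes of 0.5, 84.6% of those of 1 and 96.9% of those of 2. The simulated counts had 1 dispersion (0.0014) for every gene and 64 or 65 changed genes at each size. Far more genes were called in the data, so these rates need not hold there.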

Additional observations from a re-analysis of the deposited data

How the results depend on the processing

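The count of all genes called stayed within 1.5 times of 5359 under every alternative run. Of the 26 called members, HDAC1, HDAC3, HDAC4, HDAC6, HDAC7, KAT8, KDM4A, KDM5A, KDM6B, KMT2A, KMT2D, SETD3, SIRT2 and SIRT5 (14) passed in every alternative that tested them. KMT2A, KDM5A and SIRT5 fall under the filter of 500 counts. MELK, at -1.98, was not past the threshold with filterByExpr (adjusted p = 0.104, edgeR), and it was not tested at the minimum of 500 counts. Without 1 library it ran from -3.32 to -1.54.

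Members called higher were 6 with filterByExpr, 5 with no filter and 18 with the GC and length trend removed, against 10. Writers called higher were 2, 2 and 9 in those fits, against 5. Erasers called higher were 8 with library size alone, 3 at the minimum of 500 counts, 3 unfiltered and 9 with the GC trend removed, against 5. The writers' median was 0.058 with library size alone, -0.074 with filterByExpr and 0.129 with the GC trend removed. The erasers' median was 0.061 with library size alone, -0.087 at the minimum of 500 counts and 0.049 with the GC trend removed. With library size alone 14 members were higher and 13 lower. Without 1 library, 6 to 10 members were higher, with 2 to 6 writers and 3 to 5 erasers among them, and the medians ran from -0.070 to 0.105 for writers and from -0.038 to 0.009 for erasers. The lowest counts came without knockdown replicate 1 (6 members, 3 erasers) and without knockdown replicate 2 (2 writers). The cause was not tested.

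Signs turned as follows in 13 members, of which KDM2B alone was called. With the GC trend removed the values were HDAC11 0.13, HDAC5 0.33, KDM2B 0.043, KMT5C 0.28, SETD1A 0.39, SETD1B 0.30 and SIRT6 0.33. With library size alone they were HDAC5 0.061, KMT5C 0.003, SETD1A 0.058 and SIRT6 0.067, and HDAC5 was 0.001 at the minimum of 500 counts. With the added number modelled they were KDM4C -0.030, KMT2E 0.307, SETD2 -0.130 and SIRT6 0.099. Without 1 library the ranges were HDAC5 -0.029 to 0.005, KDM1B -0.48 to 0.22, KDM4C -0.023 to 0.37, KDM5D -0.001 to 0.048, KMT2C -0.53 to 0.12, KMT2E -0.71 to 0.15, SETD1A -0.070 to 0.026, SETD2 -0.21 to 0.38 and SIRT6 -0.08 to 0.11. The cause was not tested. Same-numbered libraries did not deviate together (correlations 0.0997, -0.0124 and -0.0801). With the replicate block 5360 genes were called, 2637 higher and 2723 lower, and 8 members were higher and 17 lower. KMT2B and SIRT7 lost their call and KDM1A gained one under the block, where MELK was at -2.45.

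Depth limits the members with under 500 counts, whose values can move by up to 100 through the added number. 3 libraries per group limit all p-values.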
